A study of Rattus norvegicus with 4 samples.

Results

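The circular RNAs (circRNAs) of 5 host genes of innate immune sensing and its restraint, Tnfaip3, Irak3, Nod2, Nlrp12 and Nampt, were followed in crushed and sham-operated rat sciatic nerve. A circRNA is an RNA circle formed when the splicing machinery links the end of an exon back to the start of an earlier or the same exon, and it was measured by the reads that cross this back-splice junction. Every listed circRNA whose annotated host was one of these 5 genes was taken, which gave 11 of the 4942 circRNAs in the files. The genes were chosen by their junction reads in these crush and sham libraries, so their difference between the groups is described without a test.

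Sciatic nerves of Sprague-Dawley rats at postnatal week 6 were sampled 24 h after surgery. In the crush group a forceps was closed 2 times on 3 mm of nerve, for 15 s with 3 s between, and that stretch was taken with 1 mm at each end. In the sham group the nerve was exposed only. Each group had 2 total RNA libraries, with 8250 and 9027 junction reads in crush nerve and 9018 and 8726 in sham nerve. Whether replicates are separate animals is not in the labels, so the spread between them may be technical.

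Innate immune receptors detect microbial molecules and products of damaged cells and drive the transcription factor NF-kB, which switches on inflammatory genes, among them its own inhibitors. Tnfaip3 encodes a ubiquitin-editing enzyme that shuts off NF-kB signalling and is itself an NF-kB target. Irak3 encodes a kinase-like protein that blocks signalling below Toll-like and interleukin-1 receptors, mainly in monocytes and macrophages. Nod2 encodes a cytosolic sensor of bacterial cell wall fragments that signals through the kinase encoded by Ripk2, and Nlrp12 a protein of the same receptor family with mostly restraining roles reported in mice. Nampt encodes the enzyme that recycles nicotinamide into NAD, and is strongly expressed in activated neutrophils. It is neither a sensor nor a brake. After a nerve crush, leukocytes enter the nerve while injured axons begin to break down.

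The promoters of 3 of the 5 genes were in the RefSeq sequence table (build GRCr8), and they are shown because NF-kB sites are what makes Tnfaip3 a feedback gene. Each runs from 250 bases before the annotated gene start to 50 bases after it, on the strand of the gene, 5′ to 3′. Capitals mark matches to the 10-base NF-kB consensus site, searched on both strands. The sequences lie at chr1:15543930-15544229 on the minus strand for Tnfaip3, chr7:57598582-57598881 on the minus strand for Irak3, and chr1:74847972-74848271 on the plus strand for Nlrp12.
Tnfaip3: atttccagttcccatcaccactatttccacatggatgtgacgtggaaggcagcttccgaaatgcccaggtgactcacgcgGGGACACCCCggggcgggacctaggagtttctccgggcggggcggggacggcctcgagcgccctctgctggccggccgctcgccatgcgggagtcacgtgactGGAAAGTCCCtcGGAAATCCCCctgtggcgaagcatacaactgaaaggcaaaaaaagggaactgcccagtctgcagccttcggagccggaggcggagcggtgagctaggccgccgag
Irak3: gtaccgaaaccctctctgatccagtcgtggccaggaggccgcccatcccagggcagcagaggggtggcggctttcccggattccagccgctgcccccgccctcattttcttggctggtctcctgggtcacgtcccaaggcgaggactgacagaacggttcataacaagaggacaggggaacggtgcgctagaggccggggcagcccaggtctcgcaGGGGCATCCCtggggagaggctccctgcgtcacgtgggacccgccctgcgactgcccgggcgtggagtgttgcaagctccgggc
Nlrp12: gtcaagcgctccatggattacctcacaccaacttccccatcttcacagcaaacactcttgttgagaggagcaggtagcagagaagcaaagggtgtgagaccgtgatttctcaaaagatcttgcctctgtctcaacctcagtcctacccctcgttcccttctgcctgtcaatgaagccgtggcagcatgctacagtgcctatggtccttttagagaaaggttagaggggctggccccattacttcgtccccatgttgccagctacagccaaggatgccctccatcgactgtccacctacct

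The Tnfaip3 promoter held 3 matches, 1 read on the strand shown at 170 to 161 bases before the start and 2 on the opposite strand at 67 to 58 and at 55 to 46 bases. The Irak3 promoter held 1, at 34 to 25 bases before the start on the strand shown, and the Nlrp12 promoter held none in this window. Among 33469 promoters of the same 300 bases, 4.18% held at least 1 match and 0.469% at least 2. This consensus was chosen after the sequences, and the matches of narrower forms of the site, had been seen. The narrower forms matched both opposite-strand sites of Tnfaip3 and nothing in Irak3 or Nlrp12. A match is a match of letters and was not tested for binding.

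Irak3 gave most of the reads and was the only 1 of the 5 hosts with reads in sham nerve. Tnfaip3, Nod2, Nlrp12 and Nampt were listed in crush libraries and at 0 in both sham libraries. Over the 5 hosts together there were 66 and 61 junction reads in crush replicates 1 and 2, against 4 and 36 in sham replicates 1 and 2. All sham reads were those of Irak3, which also held 75.8% and 70.5% of the crush reads. Junction reads count 1 point of each circle, so a level does not scale with the length of the circle, but a host sum grows with the number of circRNAs called. In whole nerve, more cells of a type and more circular RNA per cell cannot be told apart.

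**Figure D1:**
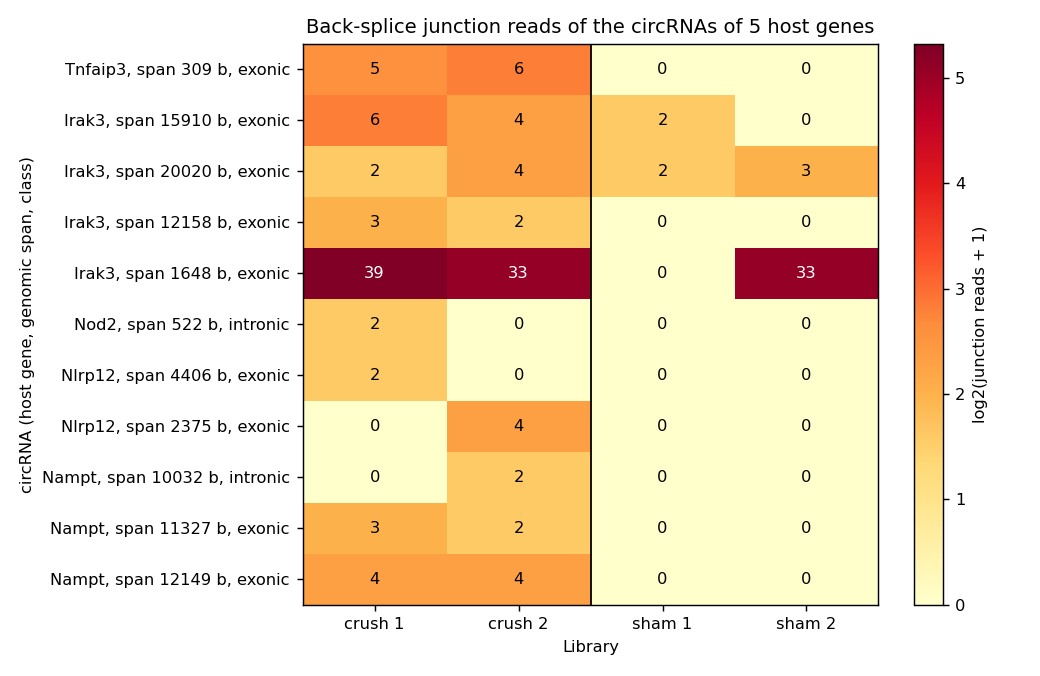
Back-splice junction reads of the 11 circRNAs (rows, with host gene, genomic span in bases and class) in the 4 libraries (columns), coloured by log2(reads + 1) and printed as reads. Irak3 with the 1648-base span stands out with 39 and 33 reads in crush nerve and 0 and 33 in sham nerve, and every other cell holds 6 reads or fewer.

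As a share of the library, the 5 hosts took 0.800% (95% exact Clopper-Pearson interval 0.619% to 1.02%) and 0.676% (0.517% to 0.867%) of junction reads in crush nerve. In sham nerve they took 0.0444% (0.0121% to 0.114%) and 0.413% (0.289% to 0.571%). Both crush intervals lay above that of sham replicate 1. That of crush replicate 1 also lay above that of sham replicate 2, while that of crush replicate 2 overlapped it. These intervals cover counting error only, and the hosts were chosen on this contrast, so their separation is no test of it. The deposited SRPBM signal, junction reads scaled by a library total, averaged 4.22 ± 0.80 in crush nerve and 1.56 ± 1.80 in sham nerve (SD, n = 2 each), a ratio of 2.70. The ratio was 1.49 without sham replicate 1 and 14.5 without sham replicate 2, so its size rested on which sham library was used.

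Without Irak3 the other 4 hosts had 16 and 18 reads in crush nerve against 0 and 0 in sham nerve, or 1.12 ± 0.06 SRPBM (SD, n = 2) in crush nerve. With the sum of the 4 hosts set to a floor of 3 reads in each sham library, that is a bound of 4.92-fold. The 3 reads were set once for the sum, and a floor of 3 reads for each host would give a smaller fold. A listed count was 0 or at least 2 in these files. A 0 thus stands for a circRNA that was not reported and can hide reads. Such a bound holds only where a 0 means few reads, and it leaves out the counting error of the crush reads. By this floor of 3 reads, a count of 0 allows a share of up to 0.0333% in sham replicate 1 and 0.0344% in sham replicate 2, for counting error only. The rows of the 5 hosts were 0 in both sham libraries for 4 of 5, where 33.9% of all 2327 host genes were at 0 in both.

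**Figure D2:**
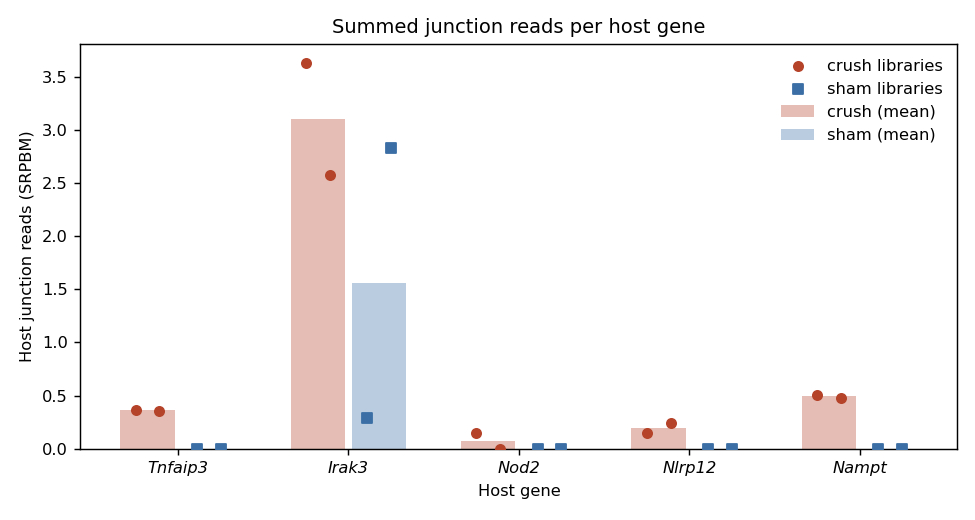
Summed junction reads per host gene in SRPBM, with a point for each library and a bar for the group mean (2 crush libraries left, 2 sham libraries right). Irak3 lies at 3.63 and 2.57 in crush nerve and at 0.291 and 2.83 in sham nerve, so its groups overlap, while the other 4 hosts are at 0 in both sham libraries.

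Among the brakes, Tnfaip3 (ENSRNOG00000049517) gave 1 circRNA, on the minus strand of chromosome 1 at 14412402 to 14412711 in Rnor_6.0, classed as exonic. It had 5 and 6 reads in crush nerve and 0 and 0 in sham nerve, or 0.363 and 0.359 SRPBM against 0 and 0. Both crush libraries were above both sham libraries, and the crush mean was 1.59 times the floor of 3 reads. That value leaves out the counting error of the crush reads. Its genomic span of 309 bases (end minus start, introns included) was among the shortest, since 1.21% of the 3731 exonic circRNAs had a shorter one and their median span was 8809 bases. The exon content of the circle is not given by the files.

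Irak3 (ENSRNOG00000004226), on the minus strand of chromosome 7, gave 4 exonic circRNAs and was the 19th most read of the 2327 host genes over the 4 libraries. It had 50 and 43 reads in crush nerve against 4 and 36 in sham nerve. By reads both crush libraries exceeded both sham libraries, but in SRPBM sham replicate 2 (2.83) lay between crush replicates 1 (3.63) and 2 (2.57). The means were 3.10 ± 0.75 SRPBM in crush nerve and 1.56 ± 1.80 SRPBM in sham nerve (SD, n = 2 each), a ratio of 1.98. Without sham replicate 1 the ratio was 1.09, and without sham replicate 2 it was 10.6. Among the most read hosts, Irak3 stood at rank 12 and 18 in crush replicates 1 and 2 and at rank 23 in sham replicate 2, but at rank 398 in sham replicate 1.

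The low value of sham replicate 1 came from 1 circRNA. The most abundant Irak3 circRNA, at 64959567 to 64961215 with a span of 1648 bases, had 39 and 33 reads in crush nerve against 0 and 33 in sham nerve. In SRPBM this was 2.83 and 1.97 in crush nerve against 0 and 2.60 in sham nerve, so that sham replicate 2 lay between the crush libraries. It made up 78.0% (interval 64.0% to 88.5%) and 76.7% (61.4% to 88.2%) of Irak3 reads in crush nerve, and 0% (0% to 60.2%, from 4 reads) and 91.7% (77.5% to 98.2%) in sham nerve. The ratio of its crush mean to its sham mean was 1.85, and 0.925 without sham replicate 1, on the other side of 1.

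The 3 other Irak3 circRNAs were read in both sham libraries as a sum, sham replicate 1 included. Together they had 11 and 10 reads in crush nerve against 4 and 3 in sham nerve, or 0.698 ± 0.141 against 0.264 ± 0.039 SRPBM (SD, n = 2 each). Both crush libraries lay above both sham libraries, as they did for 11.1% of all host genes in SRPBM. The sum leaves out the most abundant circRNA, whose groups overlapped, and Irak3 was chosen on this contrast. Nothing is read from the separation. The one at 64945305 to 64961215 had 6 and 4 reads in crush nerve and 2 and 0 in sham nerve. The one at 64945305 to 64965325, the widest of all 11 with a span of 20020 bases, had 2 and 4 in crush nerve and 2 and 3 in sham nerve, and its groups overlapped. The one at 64953167 to 64965325 had 3 and 2 in crush nerve and 0 and 0 in sham nerve. The 4 circRNAs used 3 starts and 2 ends, so each shared an end with another, and the abundant one lay inside the spans of the other 3.

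**Figure D3:**
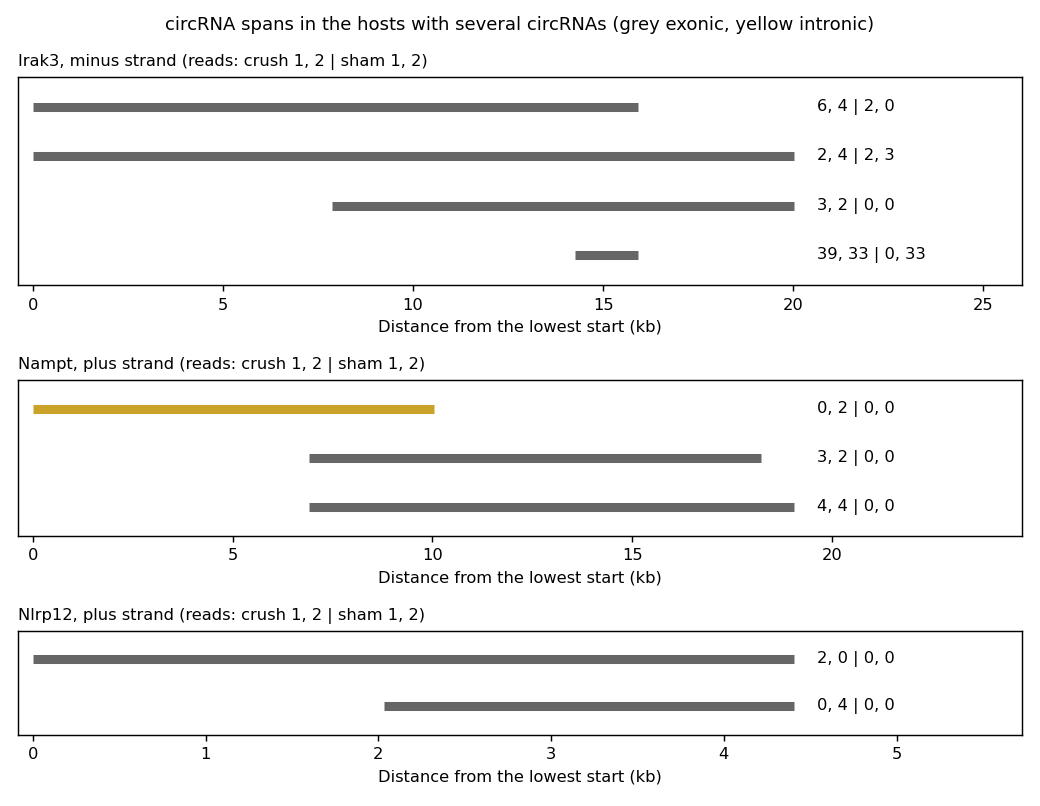
Genomic spans of the circRNAs of Irak3, Nampt and Nlrp12 as distance in kb from the lowest start of each host, with reads of crush replicates 1 and 2 and then of sham replicates 1 and 2 at the right. The Irak3 circRNAs use 3 starts and 2 ends, the 2 exonic Nampt circRNAs share a start, and the 2 Nlrp12 circRNAs share an end.

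A listed 0 opposite many reads was not limited to Irak3. Taking each library in turn, 97 times a circRNA reached 30 reads in 1 library of a group. In 11 of them (11.3%) the other library of the group was listed at 0. With at least 5 reads in place of 30, it was 402 of 1729 (23.3%). Of 23 circRNAs with at least 30 reads in sham replicate 2, 6 were at 0 in sham replicate 1, and of 24 in the opposite direction, 3 were. In the crush group the counts were 1 of 23 and 1 of 27. Of the 6, 4 were exonic circRNAs listed in both crush libraries. Besides Irak3 they were those of Arid1a (64 and 88 reads in crush nerve, 0 and 44 in sham nerve), Pwwp2a (30 and 29, 0 and 35) and Kmt2e (22 and 17, 0 and 30), 3 genes of chromatin proteins named here after their values were seen. What set these zeros was not tested.

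**Figure D4:**
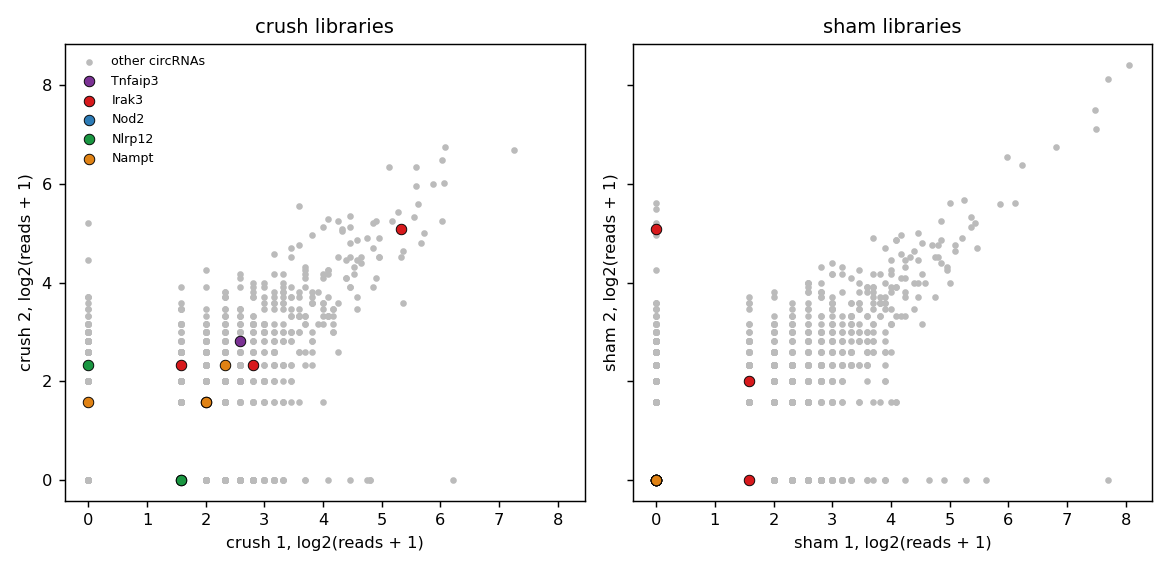
Junction reads of replicate 2 against replicate 1 as log2(reads + 1) for all 4942 circRNAs (grey), in crush (left) and sham (right) libraries, with the 11 circRNAs of the 5 hosts coloured. The Irak3 circRNA with 39 and 33 reads lies on the diagonal in the crush panel and on the left edge in the sham panel (0 and 33 reads), and the points of Nod2 and of 1 Nlrp12 circRNA (2 and 0 reads) coincide.

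Among the sensors, Nod2 and Nlrp12 had few reads. Nod2 (ENSRNOG00000014124) gave 1 circRNA, classed as intronic, on the minus strand of chromosome 19 at 19373166 to 19373688, with 2 and 0 reads in crush nerve and 0 and 0 in sham nerve. Nlrp12 (ENSRNOG00000060745) gave 2 exonic circRNAs on the plus strand of chromosome 1 that shared the end 64527089. That from 64522683 had 2 and 0 reads in crush nerve, and that from 64524714 had 0 and 4, so each crush library reported a different circle. Summed, Nlrp12 had 2 and 4 reads in crush nerve against 0 and 0 in sham nerve, or 0.145 and 0.239 SRPBM against 0 and 0. The crush means of both genes stayed under the floor of 3 reads per sham library, so no fold is given and a difference was not detectable at this depth. Between 39.0% and 45.1% of the circRNAs listed in a library had only 2 reads.

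Nampt (ENSRNOG00000009754), the NAD salvage gene, gave 3 circRNAs on the plus strand of chromosome 6, with 7 and 8 reads in crush nerve against 0 and 0 in sham nerve. In SRPBM these were 0.508 and 0.478 in crush nerve. Their mean was 2.17 times the sham floor of 3 reads, and 1.91 times it with the exonic circRNAs alone, counting error left out. The exonic circRNA at 52131586 to 52143735 had 4 and 4 reads in crush nerve. A second exonic one with the same start, 52131586 to 52142913, had 3 and 2. The third, classed as intronic, at 52124685 to 52134717, had 0 and 2, and it overlapped both exonic ones. None of the 3 was listed in a sham library.

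By class, 9 of the 11 circRNAs were exonic and 2 intronic, with spans of 309 to 20020 bases around a median of 10032. Of the 11, 4 were listed in 1 library only, or 36.4%, where 72.6% of all 4942 were. In both crush libraries and no sham library there were 4 of the 11, where 4.51% of all circRNAs were. Reads of both crush libraries exceeded those of both sham libraries for 5 of the 11, where 6.48% of all circRNAs did so. At the host level 4 of 5 did so by reads and 3 of 5 in SRPBM, where 11.6% and 11.1% of all host genes did. These shares follow from how the hosts were chosen and carry no weight as evidence.

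The fit across all circRNAs with at least 5 reads in at least 2 libraries could take 2 of the 11, the Tnfaip3 circRNA and the abundant one of Irak3. The Tnfaip3 circRNA was among those past the threshold, 7.48% of the 428 tested being past it as higher in crush nerve (edgeR quasi-likelihood test, Benjamini-Hochberg adjusted p under 0.05). That of Irak3 was not. The hosts were chosen on this contrast, so nothing is read from either. Summed per host, 3 of the 5 hosts could be tested and none was past the threshold, where 8 of 434 (1.84%) were past it as higher. Tnfaip3, whose host reads are those of its 1 circRNA, thus stood on different sides in the 2 fits. Both backgrounds moved with the libraries used. As higher in crush nerve, 0 host genes passed without crush replicate 2 and 73 without sham replicate 2, and 3, 2 and 62 circRNAs passed without crush replicate 1, crush replicate 2 and sham replicate 1.

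In the host table, the patterns most like those of the 5 hosts were found by Bray-Curtis dissimilarity of reads scaled to the library total over the 4 libraries. Nearest to Tnfaip3 were Acap2 (5 and 7 reads in crush nerve, 0 and 0 in sham nerve, dissimilarity 0.0418) and Stxbp5 (6 and 6, 0 and 0, 0.0455). Nearest to Nampt were Wwp2 (7 and 7, 0 and 0, 0.0330) and Polr2a (7 and 8, 0 and 2, 0.0620). Nearest to Irak3 were Rab11a (49 and 42 reads in crush nerve, 40 and 34 in sham nerve, 0.130) and Pwwp2a (32 and 33, 6 and 35, 0.131). Cblb and Cyfip2, with 2 and 4 reads in crush nerve and 0 in sham nerve, were among 10 hosts with the same reads as Nlrp12, and 187 hosts had the same reads as Nod2. At such counts a like pattern is shared by many genes.

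Other genes of the pathway gave few circRNA reads. Besides Tnfaip3 and Irak3, 6 of 26 other genes that restrain NF-kB had a circRNA, with 13 and 18 reads in crush nerve against 8 and 8 in sham nerve in sum. Tax1bp1, an adaptor of the Tnfaip3 enzyme, had 5 and 7 reads against 0 and 2, a fitted log2 difference of 2.62 ± 1.28 (SE, adjusted p = 0.248, edgeR). Itch, a ubiquitin ligase that works with it, had 5 and 2 against 8 and 6, a fitted log2 difference of -0.75 ± 0.86 (adjusted p = 0.641, edgeR). Bcl3, a nuclear inhibitor-like partner of NF-kB, had 0 and 5 reads against 0 and 0, and Nfkbid, of the same family, had 3 and 0 against 0 and 0. The brakes had 5 of 6 hosts with the higher mean SRPBM in crush nerve, where 1134 of all 2327 hosts had it. Of these 5, 4 were listed in 1 crush library only, with 5 reads or fewer, so no direction is read from the count. Neither of the 2 that could be tested passed.

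The adaptors, kinases and transcription factors that carry the signal had 9 of 42 genes listed, with 12 and 18 reads in crush nerve against 6 and 9 in sham nerve. Ripk2, the kinase below Nod2, went the other way from the sum, with 0 and 2 reads in crush nerve against 6 and 5 in sham nerve, a fitted log2 difference of -2.14 ± 1.26 (adjusted p = 0.337, edgeR). Nfkb1, a subunit gene of NF-kB, had 6 and 2 reads against 0 and 0, Traf2 2 and 3 against 0 and 0, and the kinase gene Ikbkb 2 and 3 against 0 and 2. The 40 further innate receptor and sensor genes had 5 hosts listed, all in crush libraries only, with 10 and 18 reads against 0 and 0. Of all 2327 host genes, 33.9% were at 0 in both sham libraries. Reads of both crush libraries exceeded those of both sham libraries for 1 of the 5, where 11.6% of all host genes did so. The rest were listed in 1 crush library only, so no direction is read from the count. Naip6 is a gene for a sensor of bacterial proteins with close relatives that could share its reads. It showed 8 and 6 reads in crush nerve but 0 and 0 in sham nerve, 2.07 times the floor of 3 reads (adjusted p = 0.0836, edgeR). Naip6 met the filter through its crush reads alone. Il1rap, a subunit of the interleukin-1 receptor, had 0 and 5 reads in crush nerve, Nlrp3, an inflammasome sensor, 0 and 4, and Tnfrsf1b, a receptor of tumor necrosis factor, 0 and 3, each with 0 and 0 in sham nerve. None of the 26 other genes of NAD metabolism, among them Nmnat2 and Sarm1 of axon survival and breakdown, was listed with a circRNA.

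Over these 4 lists, 20 hosts other than the 5 were listed and 4 could be tested, of which 0 passed as higher and 0 as lower, where 1.84% and 0.461% of all tested hosts did (edgeR). At an unadjusted p under 0.05 there was 1, and DESeq2 also called 0. With sham replicate 2 left out, Naip6 and Tax1bp1 moved across the threshold, as did many other hosts. That fit rests on 1 sham library, so nothing is read from it. The fitted median log2 difference of all tested hosts was 0.11.

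**Figure D5:**
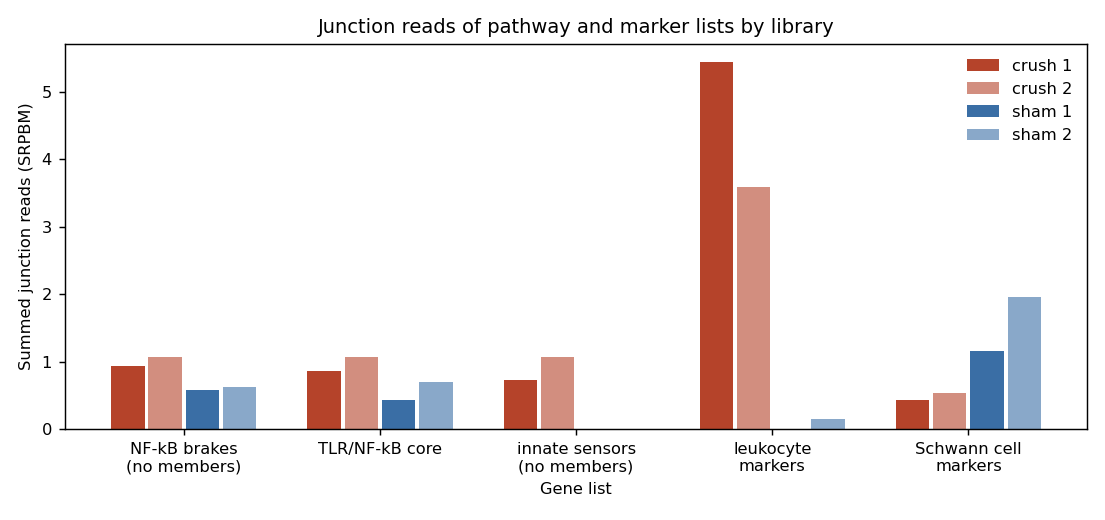
Summed junction reads in SRPBM of the hosts in each gene list, with a bar per library (crush replicates 1 and 2, then sham replicates 1 and 2) and the 5 hosts left out. Leukocyte marker hosts reach 5.44 and 3.59 in crush nerve against 0 and 0.157 in sham nerve, and Schwann cell marker hosts 0.435 and 0.538 against 1.17 and 1.97. Most reads of the Schwann cell marker hosts are those of Utrn.

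Of 44 leukocyte marker genes, 11 had a circRNA, with 75 and 60 reads in crush nerve against 0 and 2 in sham nerve. Of the 5 that could be tested 1 passed, where 1.84% of all tested hosts were past the threshold as higher. It was the neutrophil receptor gene Csf3r (28 and 16 reads against 0 and 0, adjusted p = 0.0490, edgeR). With DESeq2 size factors 0 hosts passed as higher, so this call did not hold there. The 5 tested hosts were at 0 in both sham libraries and met the filter through their crush reads alone. The lists were chosen with earlier results of these data known, so nothing is read from this call. Defining markers such as S100a8, S100a9, Cd68 and Mpo were not listed, and Ptprc had 2 and 0 reads against 0 and 0. Mrc1, a macrophage receptor gene, had reads in sham nerve only, with 0 and 0 in crush nerve and 0 and 2 in sham nerve. Of 27 Schwann cell marker genes, 5 had a circRNA, with 6 and 9 reads in crush nerve against 16 and 25 in sham nerve, while Sox10 was not listed. Utrn gave most of these reads, with 4 and 9 in crush nerve against 11 and 16 in sham nerve. It was the only 1 that could be tested and did not pass (adjusted p = 0.432, edgeR). The other hosts had 3 reads or fewer in any library, so no direction is read from the sum. The part of either cell type in the reads of the 5 hosts was not tested.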

How the data were processed

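Total RNA of crushed and sham-operated nerve was sequenced in 2 libraries each. Per the labels' protocols, paired-end libraries were made with the VAHTS kit. Per the submitters' processing notes, CASAVA 1.8, BWA, edgeR and build Rnor_6.0 were used, with no step named. Which program called circRNAs is not stated there. The authors' deposited columns are, per the file headers, raw junction read counts and SRPBM, a scaled signal. Within each library the SRPBM signal was the deposited count times 1 constant.

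Reads were summed per host gene over the 4207 circRNAs with 1 host, leaving 3 circRNAs with several hosts out. Counts with at least 5 reads in at least 2 libraries were fitted with edgeR 4.0.16 (quasi-likelihood, TMM over the tested features, R 4.3.3), two-sided, threshold 0.05, tested first on simulated data. The SE is the log2 change over the root of the F statistic. A sham group at 0 was set to a floor of 3 reads per library. DESeq2 1.42.0, other scalings, filters and left-out libraries were alternatives. The members and lists were chosen with earlier results of these data known. Named genes were the 5 hosts, per pathway list the 4 other hosts with most reads plus any past the threshold, and per host the 2 nearest by Bray-Curtis dissimilarity. Gene symbols are those of the files, and all 5 matched RefSeq symbols of GRCr8.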

Additional observations from a re-analysis of the deposited data

How the results depend on the processing

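The summed reads of the 5 hosts and those of Irak3 stayed higher after crush in every setting tried, but the size moved. The most abundant Irak3 circRNA did not stay higher. Tnfaip3 and Nampt had 0 reads in both sham libraries, so no setting could put them lower after crush. The hosts were chosen on this contrast, so a kept direction carries no weight as evidence. The summed ratio (2.70) ranged from 1.49 to 14.5 with 1 library left out. Without Irak3 it was 4.92, a bound against 3 reads for the sum in each sham library. It was 3.57 with TMM-scaled reads and 4.60 as the geometric mean of same-numbered pairs (the replicate block). For Irak3 (1.98) the left-out range was 1.09 to 10.6, and the block gave 3.36. Its most abundant circRNA (1.85) had 0.925 without sham replicate 1 and, against the floor of 3 reads, 11.0 without sham replicate 2. The bound of Tnfaip3 (1.59) was 2.12 with TMM scaling and 1.83 in raw reads, and 1.53 to 1.65 with 1 library left out. That of Nampt (2.17) was 2.89, 2.50 and, for exonic circRNAs, 1.91, and 2.09 to 2.26 with 1 library left out. Under the filter of 5 reads in 1 library Nampt had no circRNA left. The cause was not tested.

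The calls across all features, given as host genes higher and lower and then circRNAs higher and lower (8, 2, 32 and 19 as reported), were unstable. DESeq2 size factors gave 0, 0, 41 and 29, and SRPBM totals 8, 6, 31 and 28, with the median host log2 change at -0.30. The DESeq2 test gave 20, 7, 0 and 0. At least 2 reads in 2 libraries gave 0, 0, 0 and 0, at least 10 gave 30, 14, 15 and 8, and no filter 27, 12, 38 and 14. Same-numbered libraries shared only a number (correlation of deviations -0.06 over hosts and -0.11 over circRNAs), the replicate block gave 18, 6, 0 and 0, and crossed numbers, added after seeing the data, 0, 0, 0 and 0. With 1 library left out the ranges were 0 to 73, 0 to 11, 2 to 62 and 3 to 14. At an unadjusted p under 0.05, edgeR had 111 hosts and 119 circRNAs. Of the pathway hosts other than the 5, 0 to 2 passed with 1 library left out, 0 passed under the block, and none could be tested with at least 10 reads. The Tnfaip3 circRNA passed in 4 of 10 fits that could test it. The other circRNAs of the 5 hosts, and the host sums, passed in a smaller share of their fits. The Tnfaip3 circRNA met the filter of 5 reads through its crush reads alone. The hosts were chosen on this contrast, so nothing is read from these calls. Most counts of the 5 hosts were under 10 reads, which limits the precision of their values.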
